A study of Caenorhabditis elegans with 4 samples.

Results

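The early-named miRNAs of *Caenorhabditis elegans* that stand outside the large seed families, such as miR-235, miR-70 and miR-46, were described across one small RNA table. They were chosen by name, as every listed miRNA that carries one of 37 numbers, from miR-46 to miR-392, with a letter suffix ignored and both arms kept. Of these numbers, 35 were listed, and miR-353 and miR-354 were absent from the table. This gave 52 mature miRNAs from 35 hairpins, out of 205 mature miRNAs from 132 hairpins. No measured value entered the rule, but a member had to be listed, and the choice was made with earlier results of these data known. Whether the members share no seed with the large families could not be checked, because mature sequences were not analysed here.

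The libraries came from whole wild-type worms of the N2 Bristol strain at the last larval stage (L4), fed OP50 bacteria. In the heat shock group (HS) the worms were shifted to 35°C, and in the control group (CTRL) they stayed at 20°C, with 2 libraries in each group. The labels disagree on the time at 35°C, with 4 h among the sample characteristics and 6 h in the treatment protocol, which is also the time in the methods for small RNA. The table holds 1 level for each miRNA, the authors' mean over all 4 libraries of read counts divided by DESeq2 size factors (the mean normalized count below). HS and CTRL are pooled in it, so no level here belongs to one group and no spread between libraries can be given. The authors' own comparison of HS with CTRL was not used, so no response to heat is described here. The depth of each library is unknown. In whole animals, more cells that express a miRNA and more miRNA per cell cannot be told apart.

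A miRNA is cut from a hairpin precursor by Drosha and Dicer as a duplex of a 5p and a 3p arm. One arm is usually kept in an Argonaute protein as the guide, and the other, the passenger, is mostly degraded. Bases near the 5′ end of the guide, the seed, pair with target mRNAs, and miRNAs with one seed form a family. Numbers were given roughly in order of discovery, so low numbers mark miRNAs found early by cloning. Several members have relatives by seed in other animals. miR-235 is of the miR-92 type, miR-236 of the miR-8 and miR-200 type, miR-240 of the miR-193 type, miR-244 of the miR-9 type and miR-245 of the miR-133 type. miR-49 is of the miR-29 type, and miR-67 and miR-252 are related to fly miR-307 and fly miR-252.

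Seeds (bases 2 to 7) are shown for 6 members, to put the identity of each arm beside its level. The study lists these seeds for its target search. Members on chromosome I and members whose mature arm could not be placed were left out, whether or not the study lists their seed. All letters belong to the seed. They are the more abundant arm of miR-59, miR-85, miR-240 and miR-358, the less abundant arm of miR-230, and miR-359, of which 1 arm is listed.
miR-59-3p: CGAAUC
miR-85-3p: ACAAAG
miR-240-5p: GAGGAU
miR-358-3p: UUGGUA
miR-230-3p: UAUUAG
miR-359: CACUGG
No pair among these 6 had the same seed. None of the members compared below as relatives is among them, so they cannot show how often members share a seed.

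The members were mostly of middle abundance, as were the other miRNAs. Between 100 and 1000 mean normalized counts lay 30.8% of the members and 35.3% of the others. Between 1000 and 10000 lay 32.7% of the members and 29.4% of the others. The members' mean normalized counts ran from 76.1 for miR-232-5p to 165223 for miR-235-3p, a 2170-fold range. Their median was 1785, against 1295 over the other 153 miRNAs and 1512 over the whole table. None of the 10 most abundant miRNAs of the table was a member, 2 members were among the top 20, 15 among the top 50 and 28 among the top 100. At the other end, 13 members were among the 68 least abundant miRNAs. The members made up 25.4% of the listed miRNAs and 8.78% of the summed mean normalized counts. That share depended on a few very abundant miRNAs of the rest, since it was 28.1% when the 10 most abundant miRNAs were left out of the total. Between 10000 and 100000 mean normalized counts lay 13 of the 52 members (25.0%), against 20 of the other 153 miRNAs (13.1%). Above that level lay 2 members (3.85%), against 18 others (11.8%). These shares are descriptions, as no test was made of the difference.

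**Figure D1:**
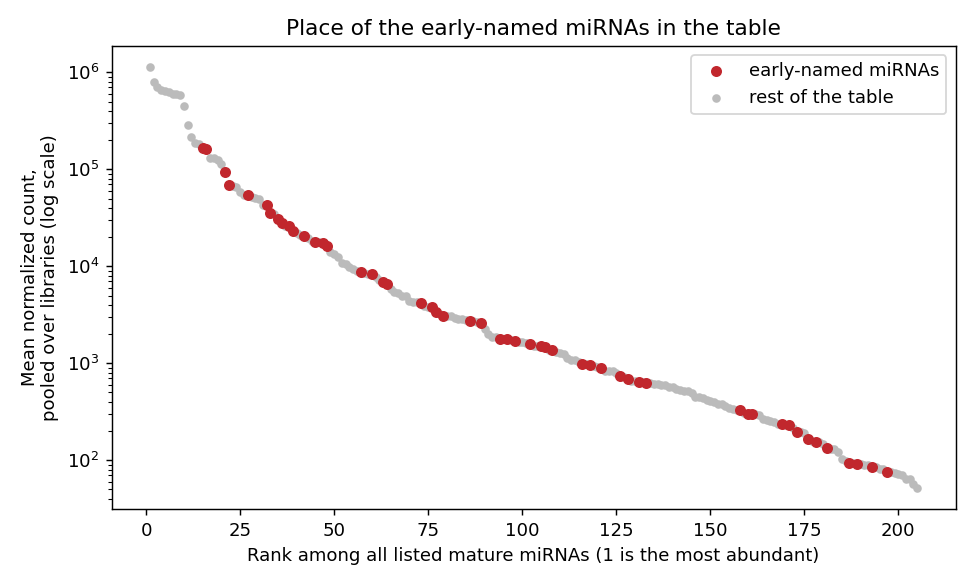
Mean normalized count of each of the 205 listed miRNAs (log scale, pooled over HS and CTRL libraries) against its rank, with the 52 early-named miRNAs in red and the rest in grey. The highest member, miR-235-3p, stands at rank 15, and the members spread from there to rank 197.

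miR-235-3p and miR-70-3p were the leading members, with nearly equal levels. miR-235, which keeps progenitor cells quiescent in starved young larvae of this worm, had 165223 mean normalized counts in its 3p arm and ranked 15th in the table. miR-70-3p had 160543 mean normalized counts and ranked 16th, at a 1.03-fold lower level. Together they held 37.5% of the members' sum. The most abundant miRNA of the table, miR-82-3p, was 6.88-fold higher than miR-235-3p.

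The next members were the listed arms of miR-236, miR-46, miR-245 and miR-244. miR-236-3p, whose relatives act in epithelia of vertebrates, had 93212 mean normalized counts. miR-46-3p followed with 68838 mean normalized counts. miR-245-3p, of the type known from vertebrate muscle, had 54092, and miR-244-5p, of the type known from neurons of flies and vertebrates, had 42513 mean normalized counts. These arms of miR-236, miR-245 and miR-244 were each listed without a partner. The annotation places 2 mature arms in each of these hairpins, and the second arm has no value in this table. The ratio between their arms is therefore unknown.

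The list of the 10 most abundant members was completed by 4 further arms. miR-47-3p had 35390 mean normalized counts. miR-60-3p, a miRNA studied in worms under oxidative stress, had 30532. miR-86-5p had 28143 and miR-230-5p had 25761 mean normalized counts. The 10 together held 81.1% of the members' sum.

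The 6 least abundant members were mainly the lower arms of pairs. miR-232-5p had 76.1 mean normalized counts, miR-85-5p had 85.9, miR-59-5p had 92.1 and miR-235-5p had 93.6. miR-67-5p had 134 mean normalized counts and miR-360-5p had 155. Of these 6, miR-360-5p was not the lower arm of a listed pair, since its 3p arm was not in the table. The lowest value of any listed miRNA was 51.5 mean normalized counts, and whether weaker arms were left out before deposit was not tested.

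Levels were then taken by hairpin. The median over the 35 hairpins, with arms summed, was 4203 mean normalized counts, against 4245 over the other 97 hairpins. The 17 higher arms of pairs had a median of 20314 mean normalized counts and the 17 lower arms a median of 646. The 18 miRNAs listed without a partner had a median of 1538 mean normalized counts. The unpartnered set still held miR-236-3p, miR-245-3p and miR-244-5p, which were in the top 6 of the members.

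**Figure D2:**
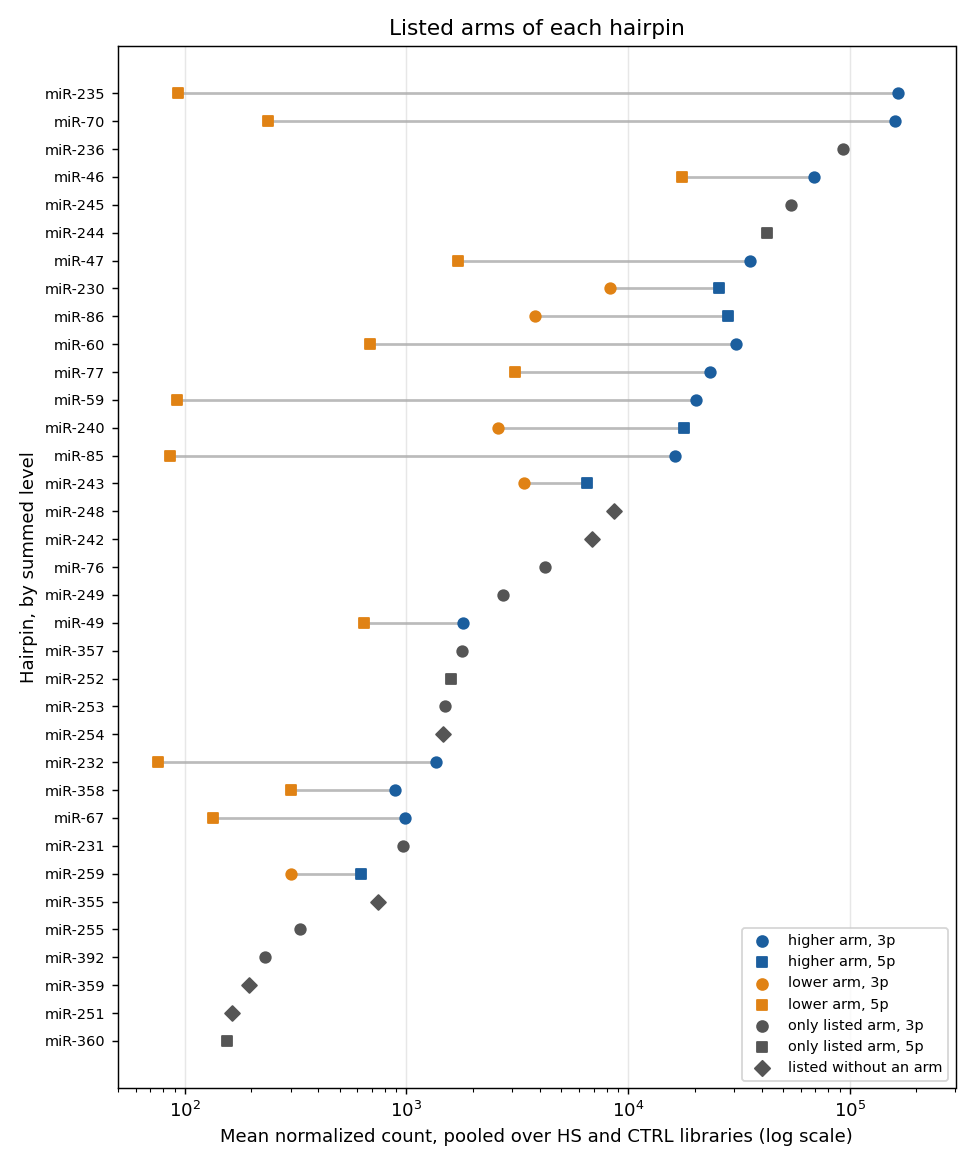
Mean normalized count (log scale, pooled over HS and CTRL libraries) of every listed arm of the 35 hairpins, ordered by summed level. Circles are 3p arms, squares 5p arms and diamonds miRNAs listed without an arm, in blue for the higher arm of a pair, orange for the lower arm and grey for an only listed arm. Arms of a pair are joined, and the gap is widest in miR-235 and miR-70.

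The choice between arms was examined in the 17 hairpins with both arms listed. In 12 of them the 3p arm had the higher level, and in 5 the 5p arm did, namely miR-86, miR-230, miR-240, miR-243 and miR-259. Among the other hairpins of the table, the 3p arm was the higher in 32 of 56 pairs. All 7 members whose arms differed at least 10-fold had the higher level in the 3p arm. None of the 5 hairpins with a higher 5p arm reached that ratio, and the largest ratio among them was 7.43 in miR-86. This covers listed pairs only, as 5p members listed without a partner, such as miR-244-5p, have no ratio. In the rest of the table the 5p arm was the higher in 24 of 56 pairs, and such a limit was not seen. There the 5p arm was 2558-fold above the 3p arm in miR-72, 775-fold in miR-65 and 479-fold in miR-237.

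The 4 most one-sided hairpins were miR-235, miR-70, miR-59 and miR-85, each with a higher 3p arm. In miR-235 the 3p arm had 165223 and the 5p arm 93.6 mean normalized counts, a ratio of 1766 that ranked 4th of all 73 pairs. In miR-70 the arms had 160543 and 237 mean normalized counts, a ratio of 679. In miR-59 they had 20314 and 92.1, a ratio of 221. In miR-85 they had 16301 and 85.9 mean normalized counts, a ratio of 190. In these hairpins the lower arm made up at most 0.524% of the hairpin's sum. The ratios describe pooled means, and any change of a ratio between HS and CTRL cannot be seen in them.

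Between the extremes lay 9 hairpins. The 3p arm was 44.3-fold higher in miR-60, where the arms had 30532 and 689 mean normalized counts, 20.8-fold higher in miR-47 and 17.9-fold higher in miR-232. In miR-77 the 3p arm had 23386 and the 5p arm 3102 mean normalized counts, a ratio of 7.54 that was close to the 7.43 of miR-86, the 7.31 of miR-67 and the 6.89 of miR-240. The ratio was 3.92 in miR-46 and 3.12 in miR-230. Abundance and one-sidedness therefore did not go together in each hairpin, since miR-46 had the 4th highest sum and one of the lower ratios.

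At the other end were hairpins in which both arms were well represented. miR-243 is loaded into the Argonaute RDE-1 and can trigger secondary small RNAs on an mRNA. The levels here do not tell which of its arms is loaded. The 5p arm of miR-243 had 6559 and its 3p arm 3396 mean normalized counts, a ratio of 1.93. In miR-259 the 5p arm had 623 and the 3p arm 301 mean normalized counts, a ratio of 2.07. In miR-49 the 3p arm had 1793 and the 5p arm 646, a ratio of 2.78. In miR-358 the 3p arm had 891 and the 5p arm 302 mean normalized counts, a ratio of 2.95. The lower arm held 34.1% of the sum in miR-243, 32.6% in miR-259, 26.5% in miR-49 and 25.3% in miR-358. Except for miR-243, these are hairpins of low or moderate level, whose sums ran from 924 for miR-259 to 2438 mean normalized counts for miR-49.

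Some lower arms were abundant in their own right. Of the 17 lower arms, 7 had at least 1000 mean normalized counts. The highest was miR-46-5p with 17561, which ranked 47th in the table and stood above the higher arm of 7 of the other 16 member pairs. miR-230-3p had 8246 mean normalized counts, miR-86-3p had 3787 and miR-77-5p had 3102. miR-240-3p, the arm with the miR-193 type seed, had 2585 mean normalized counts, while the 5p arm of that hairpin had 17819. For miR-240 the arm with relatives in other animals was thus the less abundant one, by 6.89-fold.

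The median ratio between arms was 7.43 over the 17 member pairs, against 35.7 over the 56 other pairs. A hairpin enters only if both arms are listed, which held for 17 of 35 member hairpins and 56 of 97 others. Of the 18 member hairpins left out, 14 have a second annotated arm without a value, among them miR-236, miR-245 and miR-244. The medians therefore do not describe all hairpins of either set. Pairs that differed at least 10-fold were 7 of 17 among the members (41.2%) and 34 of 56 in the rest (60.7%). Lower arms made up 6.65% of the sum of the member pairs and 1.24% of that of the other pairs. These 2 shares rest largely on the most abundant arms. Among the lower arms of the members the highest was miR-46-5p with 17561 mean normalized counts. Among the higher arms of the rest it was miR-82-3p with 1136489. On the log2 scale these median ratios were 2.89 and 5.16. With only miRNAs of at least 100 mean normalized counts they were 2.79 over 13 member pairs and 5.32 over 47 other pairs. A minimum of 1000 left 7 member pairs with a median of 2.79 and 18 other pairs with a median of 2.62. Either minimum keeps a pair only where the lower arm reaches it, so the ratio itself bears on which pairs are left. At 100, miR-235, miR-59, miR-85 and miR-232 drop out, and at 1000 miR-70 and others drop out too. Values of the 2 sets overlapped widely, and the difference was not tested.

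**Figure D3:**
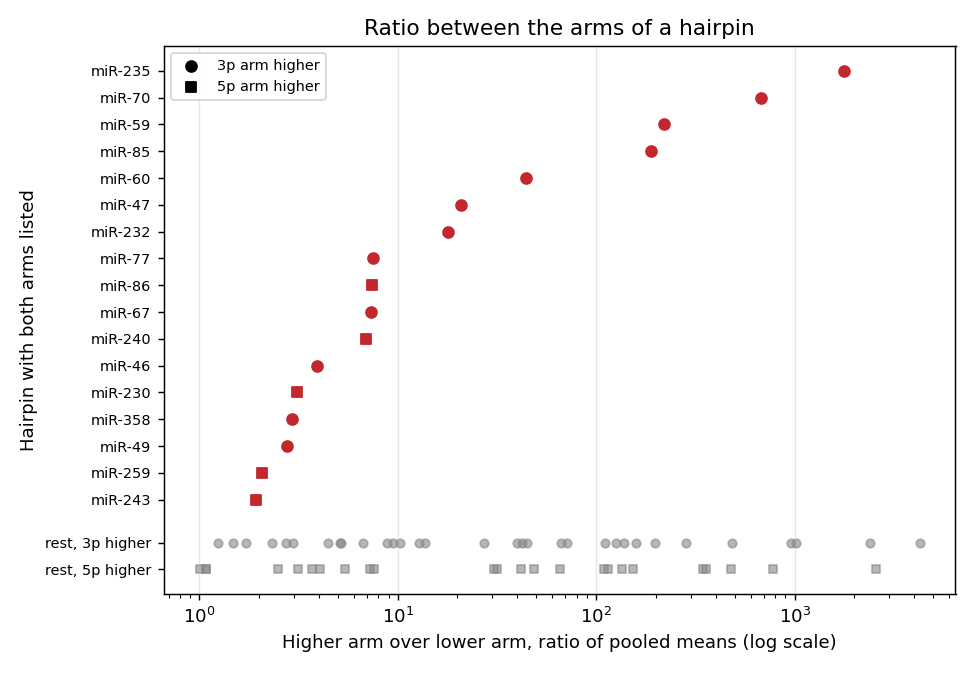
Ratio of the higher to the lower arm (log scale) for the 17 member hairpins with both arms listed in red, 1 row each, and for the other 56 pairs in grey at the bottom. Circles mark a higher 3p arm and squares a higher 5p arm. Member squares all lie under 10, while the ratio of miR-235 is 1766.

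Related members were compared next. miR-46 and miR-47 have nearly identical 3p arms and count as one small family. Their hairpins lie apart, on chromosome III (13660515 to 13660611, plus strand) and chromosome X (13921250 to 13921346, plus strand). miR-46-3p had 68838 and miR-47-3p had 35390 mean normalized counts, a ratio of 1.95. The 5p arms had 17561 for miR-46-5p and 1703 for miR-47-5p, a ratio of 10.3. The gap between these hairpins was thus larger in the lower arm than in the higher one. Reads of the similar 3p arms may have been divided between both entries, so their separate levels are uncertain.

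Other related pairs were less abundant. miR-357-3p and miR-232-3p start alike, and had 1776 and 1361 mean normalized counts, a ratio of 1.31. miR-252-5p and miR-251 resemble each other over most of their length. They had 1585 and 164 mean normalized counts, a ratio of 9.68. miR-49-3p shares its seed with miR-83-3p, which is no member. miR-49-3p had 1793 mean normalized counts and miR-83-3p had 4275, which is 2.38-fold higher. miR-231-3p and miR-787-3p also share a seed and were close, with 970 and 834 mean normalized counts. miR-86-5p had 28143 mean normalized counts, 7.43-fold more than miR-785 of the same seed with 3788. miR-67-3p, whose sequence is widely used as a control without targets in mammalian cells, had 981 mean normalized counts, and its 5p arm had 134.

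Positions on the WBcel235 assembly, counted from 1, were found for all 35 hairpins. They were spread over every chromosome, with 11 on X, 6 on II, 6 on V, 5 on III, 4 on IV and 3 on I. Hairpins on X made up 31.4% of the members and 36.2% of the 94 other hairpins that could be placed. Of the 35, 24 lay outside protein-coding genes, and 11 lay inside one (31.4%), against 36 of 94 in the rest (38.3%). The annotated mature arms of the 50 members whose arm could be placed were 19 to 24 nt long with a median of 23.0 nt. The arms of miR-254 and miR-355 could not be placed.

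Inside genes, 6 hairpins lay in an intron on the same strand. They were miR-67 in zmp-1 (a matrix metalloprotease), miR-70 in pmp-5 (a transporter of the peroxisomal membrane type), miR-254 in gcy-9 (a receptor guanylate cyclase), miR-86 in Y56A3A.7, miR-243 in R08C7.12 and miR-253 in F44E7.5. On the opposite strand of an intron lay miR-85 in F49E12.8, miR-252 in W02B12.13, and miR-357 and miR-358 in symk-1 (symplekin, a factor of mRNA 3′ end formation). miR-242 lay opposite an untranslated exon of nhr-78 (a nuclear hormone receptor). The median summed level was 1776 mean normalized counts over the 11 hairpins inside genes and 6427 over the 24 outside. Levels inside genes ran from 1115 for miR-67 to 160780 for miR-70, so both sets covered a wide range. In the rest of the table the order of these medians was the reverse, 4727 inside genes and 3061 outside.

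Few members had a listed miRNA as a close neighbour, and neighbours were not counted for the other hairpins of the table. Within 5 kb, miR-240 (chromosome X, 7882622 to 7882718, plus strand) was followed on the same strand after 32 bp by miR-786, a miRNA known for its part in the defecation rhythm of the worm. miR-240-5p had 17819 mean normalized counts, 22.5-fold more than miR-786-3p with 792. The lower arms of these hairpins were miR-240-3p with 2585 and miR-786-5p with 90.1 mean normalized counts. The levels of these close neighbours were thus far apart.

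miR-357 (chromosome V, 8580542 to 8580651, minus strand) and miR-358 (8580858 to 8580967, minus strand) lay 206 bp apart, both opposite intron sequence of symk-1. Here the levels were closer, with 1776 mean normalized counts for miR-357-3p and 891 for miR-358-3p, a ratio of 1.99. Another group was formed on chromosome X by miR-359 (3004291 to 3004400, plus strand), miR-785 after a gap of 267 bp on the same strand, and miR-249 (3006440 to 3006536, minus strand) on the opposite strand. miR-359 had 196 mean normalized counts, 19.3-fold less than miR-785 with 3788. miR-249-3p had 2736 mean normalized counts, also above miR-359.

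The remaining members were listed without a partner. Of the 18 such hairpins, 9 were listed as a 3p arm, 3 as a 5p arm and 6 without an arm in the name. The annotation gave 2 mature arms for 14 of them and 1 for the other 4, which were miR-242, miR-248, miR-251 and miR-359. miR-248 had 8650 and miR-242 had 6850 mean normalized counts, and miR-76-3p had 4203. miR-253-3p had 1492, miR-254 had 1457 and miR-355 had 748 mean normalized counts. The weakest were miR-255-3p with 330, miR-392-3p with 230, miR-359 with 196, miR-251 with 164 and miR-360-5p with 155 mean normalized counts. Unpartnered members thus ran from miR-236-3p near the top of the table to species close to its lowest values.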

How the data were processed

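Small RNA libraries of whole L4 animals, 2 HS and 2 CTRL, were grouped by their titles. The authors extracted RNA with Trizol, prepared TruSeq small RNA libraries, mapped reads to *C. elegans* miRNAs and used DESeq2. Not given in the sources used here are the aligner, the miRNA reference, how multiply matching reads were treated and which DESeq2 version was run. The deposited signal of each miRNA is a mean over the 4 libraries, HS and CTRL pooled, of their counts after division by size factors. The other 2 columns hold the authors' own comparison of HS with CTRL (log2 fold change and adjusted p) and were not used. A fit with edgeR had been planned for values per library, which were not analysed here, so no test was made and every result is a description. Size factors remove depth but not ligation or amplification bias, so levels of different sequences are comparable only roughly.

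The higher arm of a hairpin is the one with the higher mean. Hairpins were matched by name to the Ensembl release 115 annotation (WBcel235), and the build used for the miRNA mapping is not stated. Seeds were copied from those the study lists for its target search, leaving out members on chromosome I or without a placed mature arm. Named were all members on the list of seed types known from other animals, the 10 most and 6 least abundant members, the 4 hairpins at each end of the arm ratio and listed neighbours within 5 kb. Related pairs were named from background knowledge, as the planned grouping by seed needs sequences. The members and lists were chosen with earlier results of these data known. Arm assignment was run on simulated data without noise, in which the higher arm was set in advance. This checks the calculation only. Python 3.11.15 and matplotlib 3.10.9 were used.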

Additional observations from a re-analysis of the deposited data

How the results depend on the processing

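No paired analysis was possible because each value is a mean over the libraries. For the same reason leaving out a replicate, another size factor and the edgeR fit were not run, and the planned seed and first-base counts were not run for want of mature sequences. The members' share of the summed mean normalized counts was 8.78% with a minimum of 100 mean normalized counts and 8.73% with a minimum of 1000. It was 7.23% without miR-235-3p and 28.1% without the 10 most abundant miRNAs of the table, which hold most of the total. The median mean normalized count of the members was 2661 with a minimum of 100, 8448 with a minimum of 1000 and 4203 both with arms summed and with 1 arm per hairpin, since these settings drop or merge the weak arms. With no minimum the 3p arm was the higher in 12 of 17 hairpins. With a minimum of 2-fold between arms the 3p arm was the higher in 12 and the 5p arm in 4. With 10-fold these counts were 7 and 0. With a minimum of 100 mean normalized counts the 3p arm was the higher in 8 of 13 hairpins, as the dropped pairs all had a higher 3p arm. The median log2 ratio between arms was 2.79 with a minimum of 100, against 5.32 over the other pairs of the table, and 2.89 with a pseudocount of 1 or of 10. With a minimum of 1000 it was 2.79 against 2.62, and both minimums drop pairs by their lower arm. The unknown depth limits most the arms near the lowest listed value.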
